A study of Sus scrofa with 5 samples.

Results

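Glucose transporters of the GLUT family were examined in pig backfat on Affymetrix GeneChip Porcine arrays, which read each gene with 1 or more sets of short probes (probe sets). Every probe set annotated with exactly 1 symbol among SLC2A1, SLC2A3, SLC2A4 and SLC2A12 was taken, which gave 6 probe sets for the 4 genes, 3 of them for SLC2A4, among 23999 probe sets that are not array controls (24123 with controls). They are 4 of 6765 genes that a probe set with 1 symbol stood for. All 4 genes were therefore represented on the array. The annotation's gene identifiers for SLC2A3, SLC2A4 and SLC2A12 lead to the same symbols in the RefSeq table, whereas that of SLC2A1 was not found there and its symbol was kept as annotated.

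The animals were 5 females of a backcross of Iberian x Landrace boars to Landrace sows, 1 array each, fed the same cereal diet without restriction and fasted at slaughter. Animals BC4, BC5 and BC6 formed the H group, with more polyunsaturated fatty acids in muscle, and BC2 and BC3 the L group, with more saturated and monounsaturated ones. The groups are extremes of a principal component of carcass and fatty acid traits, so they differ in many traits at once, and no sibs were taken within a group. Age is given only as an average over the whole backcross, and animal BC1 of the L group had no array here.

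Glucose crosses the plasma membrane through carriers of the SLC2A family, most of which move sugar down its concentration gradient. SLC2A1 (GLUT1) serves basal uptake in most cells, SLC2A3 (GLUT3) is a high-affinity carrier best known from neurons and leukocytes, and SLC2A4 (GLUT4) is held in vesicles of fat and muscle cells until insulin sends it to the surface. SLC2A12 (GLUT12) is another carrier found in insulin-sensitive tissues. In fat cells the imported glucose feeds glycolysis, the glycerol backbone of triacylglycerol and fatty acid synthesis.

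Values are on the log2 scale, as the authors deposited them after background adjustment and normalization. The lowest value, 2.17, was shared by all arrays and was held by 5576 probe sets on all 5 of them (23.2%). No level was measured for a probe set that sits there. The array medians ran from 4.21 to 4.29. FABP4, the fatty acid carrier of adipocytes, lay between 15.36 and 15.49 on the 5 arrays, while the T cell markers CD3E and CD3D were listed at the floor throughout. Of 8 adipocyte markers 5 had a probe set and their mean value was 10.46 on BC5 and 11.70 to 12.24 on the other arrays. BC5 also had the largest difference between the 3' and 5' control probe sets of GAPDH, 2.49 against 1.52 to 1.90 on the others, a measure of RNA integrity and labelling. For actin the answer depended on the pair of control probe sets. In the brighter pair this difference did not set BC5 apart, at 4.80 on BC5, 4.77 on BC3 and 3.85 to 4.06 on BC2, BC4 and BC6. In a dimmer pair it was largest on BC5. The 3' probe set of that pair was at 9.67 on BC5 and 7.33 to 8.39 on the other arrays. Its 5' probe set was at 4.63 on BC5 and 3.74 to 4.58 on the others. SLC2A1 and SLC2A12, which were lowest on BC5, are given with and without it.

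Of the 4 transporters, SLC2A3 and SLC2A1 were well above both the floor and the median of every array, SLC2A12 was between the floor and the median, and SLC2A4 was at the floor. None of the 3 measured transporters passed the test between H and L. SLC2A1 and SLC2A12 had group means about 0.5 apart on the log2 scale, in opposite directions, and the means of SLC2A3 were close to each other. In bulk tissue, fewer cells of a type and less RNA per cell cannot be told apart.

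**Figure D1:**
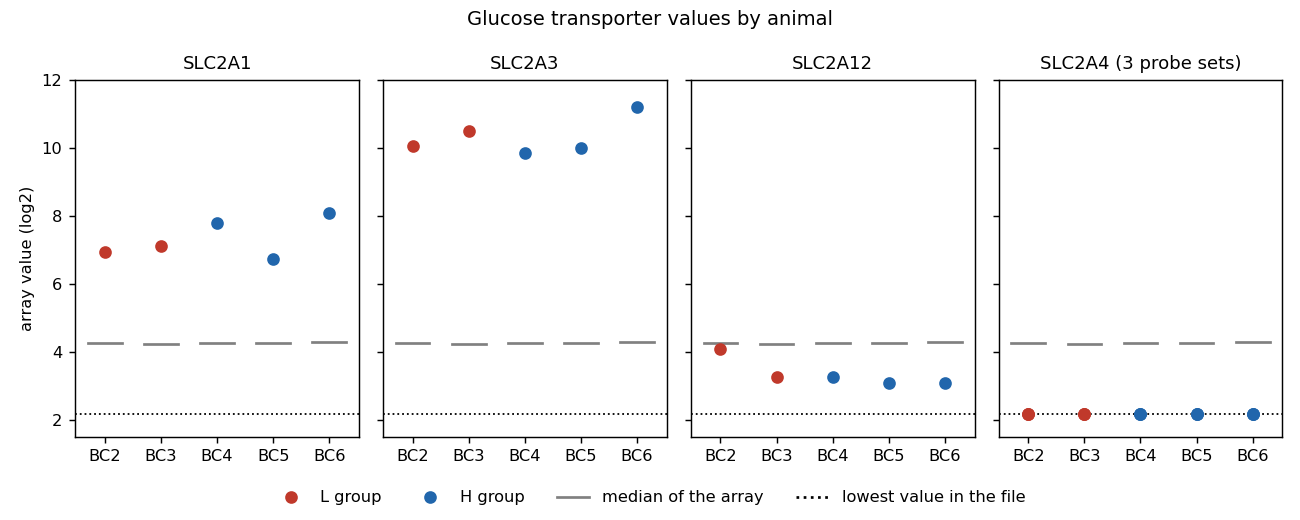
Array values (log2, vertical axis) of the 4 glucose transporters by animal, with L animals in red, H animals in blue, grey bars at the median of each array and a dotted line at the lowest value in the file, 2.17. SLC2A1 and SLC2A3 lie above the median on all 5 arrays, SLC2A12 lies below it on all 5, and the 3 probe sets of SLC2A4 lie on the floor.

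SLC2A1, the carrier of basal glucose uptake, reached 6.92 in animal BC2 and 7.11 in BC3 of the L group, and 7.78 in BC4, 6.72 in BC5 and 8.09 in BC6 of the H group. BC4 and BC6 lay above both L animals and BC5 below both, so the groups overlapped. All these values lay 2.47 to 3.80 above the median of their own array and 4.55 to 5.92 above the floor. The mean over H was 7.53 ± 0.716 (SD, n = 3), compared with 7.01 ± 0.130 (SD, n = 2) over L. H minus L was 0.52 (standard error 0.509, 95% confidence interval -1.01 to 2.04, adjusted p = 1 from limma), a mean in H that was 1.43-fold that of L. The span within the H group was larger than this, since BC5 and BC6 differed by 1.37, or 2.58-fold.

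The order of the animals for SLC2A1 was BC6, BC4, BC3, BC2 and BC5. No gap between neighbours in this order except that between BC4 and BC3 (0.67) was larger than the pooled standard deviation within groups, 0.59. Without BC5 the difference was 0.92 (standard error 0.168, unadjusted p = 0.0221, adjusted p = 1 from limma), and without BC6 it fell to 0.24. The mean of the adipocyte markers was also lowest on BC5, at 10.46, although FABP4 was highest there (15.49). Among them were ADIPOQ (9.09 against 10.52 to 12.20 on the other arrays) and LEP (4.41 against 8.27 to 10.48), the genes of the hormones adiponectin and leptin. LPL was lowest on BC5 too (12.84 against 13.52 to 14.01). PPARG was at 10.50 on BC5 and lowest on BC4 (10.28), so the measured adipocyte markers did not all fall on BC5. The 5 endothelial markers, all with a probe set, averaged 9.09 to 9.85 in H and 8.95 to 9.52 in L, highest on BC5, and KDR among them was at 2.17 to 2.21. The part of these differences, and of the 3' to 5' control difference on BC5, in the value of SLC2A1 was not tested. Of 5 erythroid markers 2 had a probe set. HBB moved little, at 8.99 to 9.42 over the 5 arrays. ALAS2 was read near the background, at 2.73 to 2.75, so its small spread says little.

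SLC2A3, the high-affinity carrier, was at 10.06 on BC2 and 10.48 on BC3 in L, and at 9.85 on BC4, 9.98 on BC5 and 11.20 on BC6 in H. BC6 was the highest of all and the other 2 H animals the lowest, so the L animals lay inside the range of H. The values lay 5.59 to 6.91 above the array medians. The mean over H was 10.34 ± 0.743 (SD, n = 3), compared with 10.27 ± 0.295 (SD, n = 2) over L. H minus L was 0.07 (standard error 0.544, 95% confidence interval -1.56 to 1.71, adjusted p = 1 from limma). The interval reaches far to both sides of 0. The direction turned without BC6 (-0.35) and without BC2 (-0.13).

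In the order BC6, BC3, BC2, BC5 and BC4 of SLC2A3, BC6 stood 0.72 above the next animal, more than the pooled standard deviation within groups of 0.63, and the other neighbours differed by 0.08 to 0.42, which is less. BC6 exceeded the other H animals by 1.22 (BC5) and 1.34 (BC4), or 2.33-fold and 2.54-fold. The highest difference between an H and an L animal was 1.14 (BC6 and BC2).

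Macrophage markers took their highest values on BC6 as well. Of 5 listed markers 3 had a probe set. CD163, a scavenger receptor of macrophages, was at 8.81 on BC6 and at 6.28 to 8.13 on the others. AIF1, a calcium-binding protein of macrophages, was at 9.31 against 7.32 to 8.37, and CD14, a coreceptor for bacterial lipopolysaccharide, at 4.47 against 3.33 to 3.64. The mean of the 3 markers was 5.80 to 7.53 in H and 6.37 to 6.62 in L, and over the 5 animals it ran in the same order as SLC2A3. None of the 3 markers had this order alone. A second probe set of CD163 also peaked on BC6 (6.98 against 3.55 to 5.12), and a second one of CD14 was at the floor on all arrays. A high value on BC6 was not particular to macrophage markers. Of 5 fibroblast and preadipocyte markers 3 had a probe set, and their mean was 13.46 on BC6 and 12.74 to 13.11 on the others. DCN and LUM were highest on BC6 and PDGFRB on BC5. The adipocyte mean was 12.24 on BC6 and 12.23 on BC2. With 5 animals no correlation was computed, and the part of any of these cell types in the value of SLC2A3 was not tested.

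**Figure D2:**
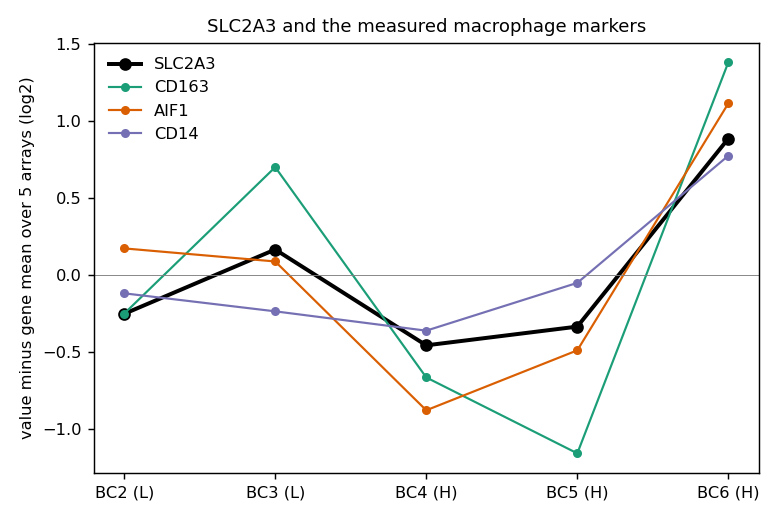
SLC2A3 and the 3 measured macrophage markers, each as its value minus its own mean over the 5 arrays (log2, vertical axis), by animal. All 4 genes are highest on BC6, where SLC2A3 is at 11.20 and CD163 at 8.81.

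SLC2A12 was at 4.06 on BC2 and 3.24 on BC3 in L, and at 3.25 on BC4, 3.08 on BC5 and 3.08 on BC6 in H. BC2 stood apart from the other 4 animals, and BC3 lay just below BC4, so the groups overlapped by 0.0037. The values lay 0.92 to 1.89 above the floor and -0.18 to -1.21 from the array medians. The mean over H was 3.14 ± 0.0944 (SD, n = 3), compared with 3.65 ± 0.578 (SD, n = 2) over L. H minus L was -0.51 (standard error 0.296, 95% confidence interval -1.40 to 0.37, adjusted p = 1 from limma). No fold is given, since these values were read near the background. The study lists SLC2A12 as differentially expressed in its RNA-Seq, which included animal BC1, with lower counts in H.

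Without BC2 the difference of SLC2A12 was -0.11, and without BC3 it was -0.92 (standard error 0.101, unadjusted p = 0.00700, adjusted p = 0.209 from limma). Each of these fits takes the spread of the single L array to equal that of the H arrays. Without BC5, its lowest animal, the difference of SLC2A12 was -0.49. In the order BC2, BC4, BC3, BC6 and BC5, the first gap was 0.81, above the pooled standard deviation of 0.34, and the gaps further down were at most 0.16. BC5 and BC6 differed by only 0.000543. Among 662 probe sets with a mean within 0.25 of that of SLC2A12, 124 (18.7%) had their 2 lowest arrays within 0.001 of each other. Over the whole file, 867 probe sets above the floor had the same value on all 5 arrays within 1e-06.

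SLC2A4, the insulin-responsive carrier, had no measured level. Of its 3 probe sets, 2 were listed at the floor on all 5 arrays, and the third was at 2.17 on every array, exceeding the floor only on BC2 and there by 0.0023. No fold change was taken from these values. Across the array, 23.2% of probe sets were at the floor on all 5 animals, including those of IRS1, the insulin receptor substrate, and TBC1D4, the Rab regulator that insulin acts on to release SLC2A4 vesicles. A value at the floor does not show that a transcript was absent.

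**Figure D3:**
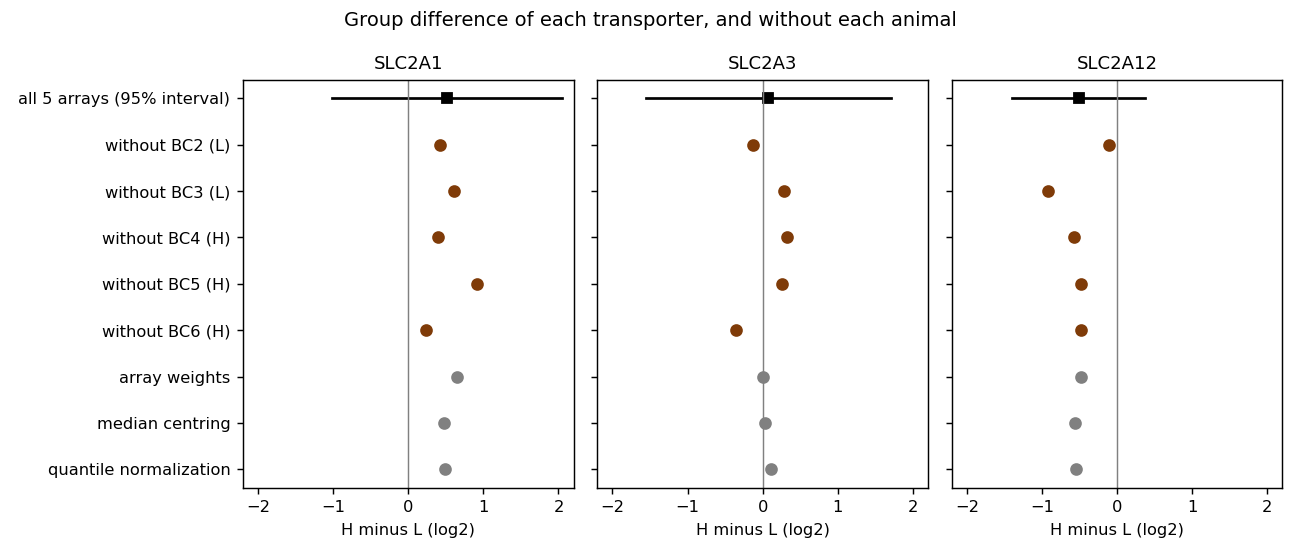
Difference of H minus L (log2, horizontal axis) for SLC2A1, SLC2A3 and SLC2A12, with the 95% interval from all 5 arrays as a black line, the differences without each animal in brown and those under other scalings or with array weights in grey. All 3 intervals include 0, SLC2A1 ranges from 0.24 to 0.92, SLC2A3 lies on both sides of 0, and SLC2A12 ranges from -0.92 to -0.11.

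Over all 23999 probe sets, 0 (0%) met all of the thresholds in limma, which were 0.01 for the p-value, 0.1 for the adjusted p and 1.2 for the fold difference. An unadjusted p under 0.05 was found for 762 (3.18%), of which 384 (1.6% of all) were higher and 378 (1.58%) lower in H. None of the 3 measured transporters was among the latter, the smallest unadjusted p being 0.171 for SLC2A12. H and L did not overlap for 2655 (20.9%) of the 12727 probe sets whose 5 values all differ, with H above L for 11.5% and below it for 9.38%, and the groups overlapped for each of the 3 transporters. The spread of these transporters between animals was larger than that of most probe sets above the floor on all arrays. The standard deviation over the 5 animals was 0.584 for SLC2A1, 0.547 for SLC2A3 and 0.409 for SLC2A12, above that of 88.5%, 86.6% and 76.0% of these probe sets. These probe sets include 867 with the same value on all 5 arrays within 1e-06, and no comparison at a like level was made.

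The 3 transporters followed different patterns over the animals. SLC2A1 was high on BC4 and BC6, SLC2A3 on BC6, and SLC2A12 on BC2. For each, the 3 genes with the most similar pattern were taken from 7903 probe sets with 1 symbol above the floor on all arrays, by the root mean square of the differences between mean-centred log2 values over the 5 animals. For SLC2A1 these were CNP (0.115), CANT1 (0.125) and SRSF12 (0.134), where SLC2A1 itself varied by 0.522 about its mean. CNP and CANT1 were read near the background there, at 2.60 to 3.96 and 2.73 to 3.79, and a brighter probe set of CANT1 (8.24 to 9.84) did not share the pattern. SRSF12 was also dim, at 3.70 to 4.72, and lay below the array median on BC2, BC3 and BC5.

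For SLC2A3, which varied by 0.489 about its mean, the most similar genes were PLAU (0.0592), which encodes the urokinase plasminogen activator, GJA1 (0.0906), a gap junction protein, and C1H14orf37 (0.0962). PLAU was at 9.27 on BC6, 7.87 on BC4 and between these on the other arrays. GJA1 was at 13.15 on BC6 and at 11.76 to 12.39 on the others. Both were thus highest on BC6 and lowest on BC4, like SLC2A3.

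For SLC2A12, which varied by 0.366 about its mean, they were GPN3 (0.0378), a small GTPase, ACBD5 (0.0477), an acyl-CoA-binding protein of peroxisomes, and LOC100156375 (0.0480). ACBD5 was at 11.68 on BC2 and 10.75 to 11.00 on the others. All 3 genes stood high on BC2, as did SLC2A12. Likeness over 5 animals is given as a description only.

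**Figure D4:**
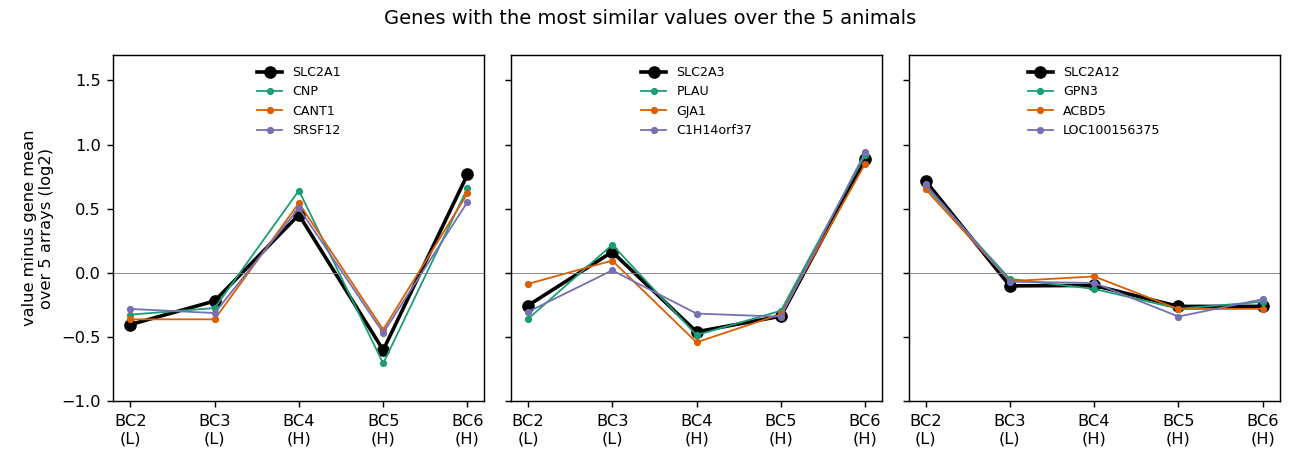
Values minus the mean over the 5 arrays (log2, vertical axis) of SLC2A1, SLC2A3 and SLC2A12 in black and of the 3 genes most similar to each in colour, by animal. The pattern of SLC2A3 is set by BC6 and that of SLC2A12 by BC2, while SLC2A1 is high on both BC4 and BC6.

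Among 11 other sugar carriers of the GLUT and SGLT families, 4 had a probe set. SLC2A5, the fructose carrier, reached 9.28 in BC2, 6.49 in BC4, 4.58 in BC3, 4.40 in BC5 and 3.25 in BC6. It spanned 6.02 on the log2 scale, and BC2 was its highest animal, as for SLC2A12. The groups overlapped, and H minus L was -2.21 (standard error 2.02) with an adjusted p of 1 from limma. SLC2A8, an intracellular carrier, was at 3.45 to 4.16 and differed by 0.18 (standard error 0.286). SLC2A2, the carrier of liver and pancreatic islets, was at the floor on all 5 arrays, and SLC5A1, the sodium-coupled carrier of the intestine, within 0.001 of it.

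Of 15 listed genes of insulin signalling to SLC2A4, 9 had a probe set and 0 passed in either direction in limma, with 1 at an unadjusted p under 0.05. Over the whole array 3.18% of probe sets had such a p in limma. The 1 gene was PDPK1, the kinase that phosphorylates AKT, at 9.81 and 9.82 in the L animals BC2 and BC3 and at 10.11, 10.16 and 9.98 in the H animals BC4, BC5 and BC6. All 3 H animals lay above both L animals, with a difference of 0.27 (standard error 0.068, unadjusted p = 0.0237, adjusted p = 1 from limma), and its second probe set differed by 0.17 with overlapping groups. AKT1, the kinase below it, differed by 0.52 (standard error 0.306), and its second probe set was at the floor.

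TBC1D1, a Rab regulator of SLC2A4 vesicles, had 3 probe sets. The brightest, used for the list, differed by 0.15 (standard error 0.103). The other 2 were dimmer and differed by 0.60 (standard error 0.066, unadjusted p = 0.00179, adjusted p = 0.852 from limma) and 0.91 (standard error 0.156, unadjusted p = 0.00729, adjusted p = 1 from limma), each with all 3 H animals above both L animals. The probe sets thus shared a direction and not a size. Over the whole array, H lay wholly above L for 11.5% of the probe sets whose 5 values all differ. All 3 probe sets of INSR, the insulin receptor, were near or at the floor. The one used for the list was at 2.58 on all 5 arrays, another was at the floor, and the remaining one was at 2.18 to 2.44 with overlapping groups.

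Vesicle traffic and fusion, the step that brings SLC2A4 to the membrane, had 7 of 14 listed genes on the array, and 0 passed. The H mean was higher for 3 and lower for 4, where it was higher for 51.9% and lower for 43% of all probe sets above the floor on all arrays, and the median difference was -0.14. VAMP8 (-0.18, standard error 0.107), SNAP23 (-0.19, standard error 0.158) and CLTC (-0.17, standard error 0.163), proteins of vesicle fusion and coat, had the smallest p-values. Of glucose phosphorylation, which traps the sugar inside the cell, 2 of 5 genes had a probe set. Hexokinase HK1 was at 9.48 on BC2 and 7.89 to 8.54 on the others, a difference of -0.57 (standard error 0.500), and HK3 differed by 0.24 (standard error 0.251). BC2 was the highest animal for HK1, as for SLC2A12.

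Among 10 regulators of transporter genes, 9 had a probe set and 0 passed, with a median difference of -0.0033. H lay wholly above L for 3 of the 9 and wholly below it for 1, where the whole array gave 11.5% and 9.38% of such probe sets. MEF2D, a transcription factor known to act on the SLC2A4 promoter in muscle, was at 9.54 on BC2 and 9.44 on BC3, and at 9.69 on BC4, 10.04 on BC5 and 9.88 on BC6. Its difference was 0.38 (standard error 0.128, unadjusted p = 0.0506, adjusted p = 1 from limma). KLF15, a Krüppel-like factor of adipocytes and muscle, was lower in each H animal (7.83 to 8.15) than in either L animal (8.23 and 8.56). H minus L was -0.43 (standard error 0.165) with an adjusted p of 1 from limma. MEF2A (0.26) and NFIC (0.23) were the other 2, both with H above L in the probe set used for the list. The second probe set of MEF2A differed by 0.23 with overlapping groups, and the dimmer second one of NFIC by -0.03.

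Of 13 hypoxia-responsive genes, to which SLC2A1 and SLC2A3 are known to belong, 8 had a probe set, 0 passed, and the H mean was higher for 4 and lower for 4 (median difference -0.16). PGK1 (-0.62, standard error 0.450) and ALDOC (-0.93, standard error 0.763), both of glycolysis, were highest on BC2, at 12.03 and 13.53. LDHA, of lactate formation, was highest on BC6 (11.50 against 10.47 to 10.98), as was P4HA2, of collagen hydroxylation (9.01 against 7.55 to 8.97), and so were SLC2A1 and SLC2A3. Other genes of the list peaked elsewhere, VEGFA on BC4 in its brightest probe set (11.75), ADM on BC3 (11.84) and ANKRD37 on BC5 (6.45). In another of the 4 probe sets of VEGFA the mean of H lay 1.14 below BC3, so the probe sets of VEGFA differed in pattern. ANKRD37 was lowest on BC6 (4.83). CA9, a carbonic anhydrase, stayed within 2.83 to 2.87. Over all probe sets above the floor on some array, the median difference was 0.0017.

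**Figure D5:**
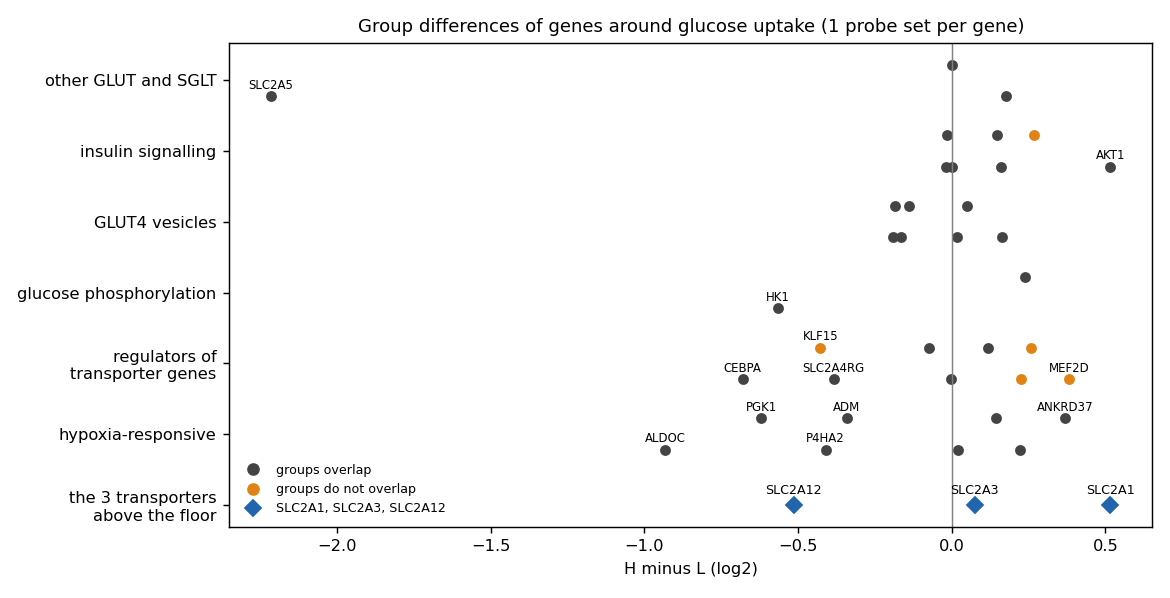
Difference of H minus L (log2, horizontal axis) for the measured genes of 6 lists around glucose uptake and for SLC2A1, SLC2A3 and SLC2A12, with 1 probe set per gene and orange points where the groups do not overlap. No gene passed the test, SLC2A5 lies farthest from 0 at -2.21, and 4 of the 9 regulators of transporter genes are orange.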

How the data were processed

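The deposited log2 values came from 1 Affymetrix GeneChip Porcine array per animal. Before deposit, the authors corrected the scans for background, brought the arrays to a common scale and combined the probes of each set. GCRMA is named for this in the study's methods and RMA in the submitters' processing notes, which leaves the method unsettled. Liver is named as the source of RNA in the extraction protocol, but the sample labels and the study give backfat. H and L were assigned from the animal names in the labels, through the study's list of animals.

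H minus L was tested with limma 3.58.1 in R 4.3.3 on 23999 probe sets, without 124 controls and without covariates, with Benjamini-Hochberg adjustment over all. The thresholds are those of the study's RNA-Seq. For listed genes the brightest probe set was used, and up to 3 genes per list with the smallest p-values were named. CD163, AIF1, CD14, DCN, LUM, PDGFRB, MEF2A, LDHA, P4HA2, VEGFA, ADM, ANKRD37, ADIPOQ, LEP, LPL, PPARG, HBB, ALAS2, INSR and the genes at the floor were named after their values were seen. Differences under 0.001 were given no direction, also chosen after the data were seen. The members and lists were chosen with earlier results of these data known. The steps were tested on simulated data. The RNA-Seq data were not analysed here. The number of arrays limits the precision.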

Additional observations from a re-analysis of the deposited data

How the results depend on the processing

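No probe set passed under an alternative that kept all 5 arrays (an adjusted p of 0.05, leaving out the dimmest 40%, median centring, quantile normalization, an intensity trend, robust eBayes, array weights). Without 1 animal 0 to 286 passed, 160 without L replicate 2 and 286 without L replicate 3, both with the single L array taken to have the spread of the H arrays. None of these was a probe set of SLC2A1, SLC2A3 or SLC2A12, or the brightest one of a gene of the 6 lists. With all arrays, the probe set with the largest SD for each gene gave 0 list calls too. Over all 64 probe sets of the lists' genes, an alternative chosen after seeing the data, 1 passed without L replicate 2 (VEGFA, -1.14) and 0 without any other animal. SLC2A1 ranged from 0.24 to 0.92 and SLC2A12 from -0.92 to -0.11 over all alternatives, each with its direction kept. SLC2A3 turned direction with array weights (-0.00098), without L replicate 2 (-0.13) and without H replicate 6 (-0.35), and ranged from -0.35 to 0.32 without 1 animal. The cause of these turns was not tested, and the fits without 1 animal also had fewer arrays. No mean over probe sets could be taken, since each measured transporter had only 1, and SLC2A4 gave no difference, as its signal did not rise over background. No paired analysis was made, because each animal belonged to only 1 group and the labels used here give no pairing between animals.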
